A study of Mus musculus with 6 samples.

Results

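The genes described here are those of the eukaryotic translation initiation factors. They were taken by name, as every row of the expression table whose gene name starts with Eif and a digit, which gave 57 of the 23060 rows. The name rule uses no measured value, though it was set with earlier results of these data known. They divide by the number after Eif into 5 eIF1, 15 eIF2, 14 eIF3, 18 eIF4, 4 eIF5 and 1 eIF6 genes. The 6 libraries are labelled as HL-1, an established line derived from mouse atrial cardiomyocytes, of wild-type genotype and grown in Claycomb Medium with serum, antibiotics, norepinephrine and L-glutamine. In 3 libraries the cells were controls, and in the other 3 they were tachypaced, that is, stimulated electrically at a high rate as a culture model of rapid atrial activity. The labels state neither how fast nor how long the cells were paced. Whether each replicate was its own culture is not stated either, so the p-values speak of the spread among these 6 libraries, part of which may be technical.

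Initiation is the step at which a ribosome is placed on an mRNA and finds the start codon. eIF2 brings the initiator tRNA to the small ribosomal subunit, eIF1 and eIF1A hold that subunit in a scanning state, and eIF3 is the large scaffold that binds both. eIF4E, eIF4G and the helicase eIF4A together recognise the cap of the mRNA and load it, after which eIF5 and eIF5B complete start codon recognition and subunit joining. Cells lower initiation in 2 well-known ways, by kinases that phosphorylate eIF2 and by binding proteins that take eIF4E away from eIF4G.

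Start codons are what these factors read, and some of the genes are known for unusual starts of their own, so the sequence around the start of the genes the results turn on is given first. Each line has 9 bases before the start codon, the start codon in capitals and 6 bases after it, from the principal GENCODE M21 transcript (GRCm38), on the strand of the gene.
Eif1: tcgtatcgtATGtccgct
Eif1b: tagtgtcgcATGtccact
Eif2s1: cacttcagaATGccgggg
Eif2s2: actacagccATGtccggg
Eif2s3x: ccgagcaagATGgctggg
Eif3a: accgtcaagATGccggcc
Eif3b: cgcgggcccATGcaggac
Eif3l: gccgtagccATGtcttac
Eif4g1: ccaaatgaaATGaacaaa
Eif4g2: gccgccaaaGTGgagagt
Eif5: taagccaaaATGtctgtc
A favourable mammalian start has a purine 3 bases before the ATG and a G directly after it. Of 54 initiation factor genes with an ATG start, 24 (44.4%) had both features, against 41.5% of 20440 protein-coding genes. The genes with neither were Eif1, Eif1b, Eif3b and Eif4e1b, 7.41% of the initiation factor genes and 7.42% of all. The weak start of eIF1 mRNA is known as the site through which eIF1 limits its own translation. Eif4g2, whose product resembles eIF4G without the part that binds eIF4E, is annotated with a GTG start.

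In all 6 libraries the transcripts that define cardiac muscle were nearly absent. Of 15 cardiomyocyte markers, 7 were listed at 0 throughout (Myh6, Actc1, Myl7, Nppb, Nkx2-5, Gata4 and Sln), and the markers summed to between 3.22 and 4.02 FPKM per library. Most of that sum was Tnni3, at between 2.78 and 3.64 FPKM, the only 1 of the 15 with a mean of at least 1 FPKM. FPKM is a gene's number of sequenced fragments, divided by its transcript length and by all mapped fragments of that library. Markers of macrophages summed to between 1697 and 1929 FPKM in the controls, to between 2118 and 2329 FPKM in the tachypaced libraries, and 5 of the 14 tested rose, when 2.30% of all tested genes did. These values go against the labelled cell type, and the libraries are named by their labels. Fibroblast and endothelial markers summed to at most 0.144 and 1.93 FPKM. Mitochondrial transcripts held between 7.91% and 8.42% of summed FPKM in the controls, and between 9.001% and 9.72% in the tachypaced libraries. The part of these differences in the results below was not tested, and in bulk RNA fewer cells of a type and less RNA per cell cannot be told apart. Leaving out control replicate 1 raised the number of genes called in the whole table from 572 of 10361 to 3108 of 10349, so calls of initiation factor genes that turn on that library are given with and without it. Read depth is unknown.

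Tachypaced libraries had more Eif1 transcript and less of Eif2s2, Eif2s3x, Eif3a and Eif3l than control libraries. These 5 were the initiation factor genes that passed the test, 1 higher and 4 lower, of 51 with a mean of at least 1 FPKM (limma-trend on log2(FPKM + 1), Benjamini-Hochberg adjusted p threshold of 0.05 over 10361 genes). Among all tested genes 5.52% were called, 2.30% higher and 3.22% lower, and among initiation factor genes 1.96% were higher and 7.84% lower. At an unadjusted p under 0.05 the initiation factor genes, with 15 of 51 (29.4%), stood beside 30.2% of all tested genes. The values of both groups did not overlap in 19 of the 51 (37.3%), 5 higher and 14 lower, against 34.9% of all tested genes, 12.6% higher and 22.4% lower. By unadjusted p and by overlap the initiation factor genes were thus near the whole table, and the higher share of lower calls rests on 4 genes. Their median log2 fold change was -0.07, against -0.04 over all tested genes.

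The 5 calls lay close to the threshold, with adjusted p between 0.0435 and 0.0479. Each was lost when any library other than control replicate 1 was left out, with adjusted p between 0.069 and 0.177, and all 5 were also lost under quantile normalization, without the filter on low values and without the mean-variance trend. Scaling by the median of ratios kept Eif1 and lost the 4 lower calls, with adjusted p between 0.0505 and 0.0638. Without control replicate 1, 3 of the 51 were called higher and 18 lower (5.88% and 35.3%), when 11.2% of all tested genes were called higher, 18.8% lower and 30.0% in either direction. In each of the 5 genes control replicate 1 was the control nearest to the tachypaced values, so the larger counts without it are no further support.

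**Figure D1:**
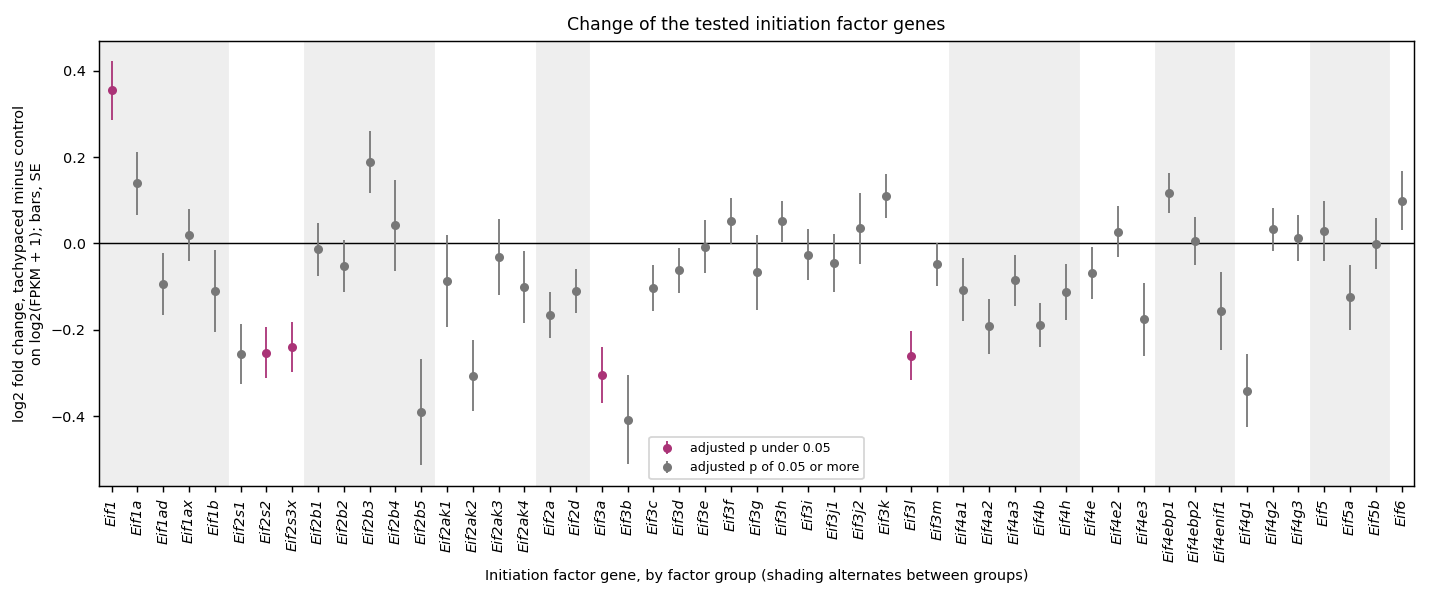
Log2 fold change of each of the 51 tested initiation factor genes, tachypaced minus control, on the log2(FPKM + 1) scale (y axis; points are estimates and bars SE, n = 3 libraries per group), ordered by factor group on the x axis. Eif1 is the only called gene above the line, and the called genes below it are Eif2s2, Eif2s3x, Eif3a and Eif3l, while most other genes lie within 0.2 of 0.

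The genes covered a wide range of levels. Eif5a was highest with a mean of 662 FPKM over the 6 libraries, followed by Eif4a1 with 319 and Eif3h with 284 FPKM. The kinases that phosphorylate eIF2 were among the lowest tested members, with means between 4.88 and 10.3 FPKM. The 6 genes below the level tested were paralogs or copies of more abundant ones. Eif2s3y, the Y-linked copy of the eIF2 gamma gene, and the oocyte eIF4E gene Eif4e1b were listed at 0 in all 6 libraries. Eif5a2 reached at most 0.00628, the helicase copies Eif4a3l1 and Eif4a3l2 at most 0.0270 and 0.137, and Eif4ebp3 at most 0.604 FPKM. Together the 57 genes made up 1.07%, 1.11% and 1.13% of the summed FPKM of the control libraries and 1.02%, 1.02% and 1.03% of that of the tachypaced libraries. The summed share was lower in each tachypaced library than in any control, with control replicate 1 again the nearest control. The summed FPKM itself overlapped between the groups, at 4379 in control replicate 1 and 4427 in tachypaced replicate 2. The total that the share is divided by was higher in each tachypaced library than in any control.

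**Figure D2:**
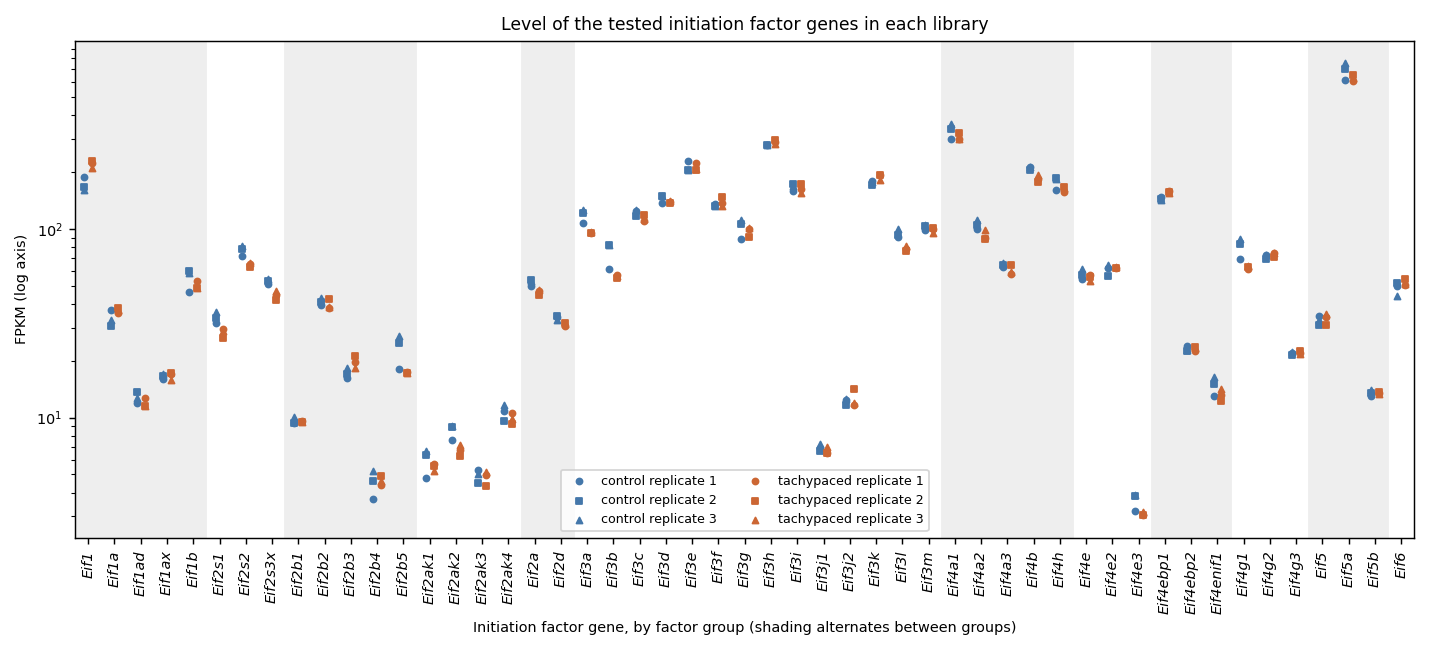
FPKM of the 51 tested initiation factor genes in each of the 6 libraries (y axis, log scale; blue for control, orange for tachypaced, a symbol for each replicate), by factor group on the x axis. Levels run from about 3 FPKM (Eif4e3) to between 610.1 and 754 FPKM (Eif5a), and differences between genes are far larger than those between groups of libraries.

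Among the eIF1 genes, Eif1 rose and its paralog Eif1b did not pass the test. Eif1, which keeps the scanning ribosome from starting at wrong codons (chromosome 11, 100319885 to 100322096, GRCm38), stood at 189, 166 and 161 FPKM in control replicates 1 to 3 and at 223, 228 and 209 FPKM in tachypaced replicates 1 to 3. The groups did not overlap, and control replicate 1 was the highest control. Mean levels were 172 ± 14.6 and 219.8 ± 9.65 FPKM (SD, n = 3 each, as for every mean given here). The log2 fold change of 0.35 (SE 0.07, limma adjusted p = 0.0435) was the largest increase among the initiation factor genes. Eif1b, whose coding sequence is identical to that of Eif1 at 81.1% of aligned bases, stood at 46.04, 59.5 and 58.2 FPKM in control and at 53.3, 48.8 and 48.5 FPKM in tachypaced libraries. These groups overlapped (log2 fold change -0.11, limma adjusted p = 0.457). With control replicate 1, the lowest control, left out, Eif1b was called lower (-0.23, limma adjusted p = 0.0166).

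Within each library the log2 ratio of Eif1 to Eif1b was 1.64 ± 0.32 in control and 2.11 ± 0.08 in tachypaced libraries. Control replicate 1, at 2.01, lay close to the tachypaced range of 2.04 to 2.20, and the other controls lay at 1.47 and 1.46. An exact permutation test gave p = 0.1, two-sided, the smallest that 3 against 3 libraries allow. Eif1a and Eif1ax encode eIF1A, the partner of eIF1 on the scanning ribosome, and are 85.6% identical. Eif1a stood at 37.1, 30.8 and 32.9 FPKM in control and at 35.9, 38.1 and 36.97 FPKM in tachypaced libraries (log2 fold change 0.14, adjusted p = 0.224). Eif1ax stood at 16.05, 16.5 and 16.97 FPKM in control and at 17.1, 17.3 and 15.9 FPKM in tachypaced libraries. In both genes the groups overlapped, and Eif1a was called higher when control replicate 1, its highest control, was left out (0.21, limma adjusted p = 0.0192). Eif1ad, named for a domain shared with eIF1A, stood at 12.8 ± 0.90 and 11.9 ± 0.64 FPKM. With all 6 libraries none of these 3 genes passed the test.

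All 3 detected subunit genes of eIF2, the carrier of the initiator tRNA, were lower in every tachypaced library than in any control, as were 22.4% of all tested genes, and 2 passed the test, where 3.22% of all were called lower. Eif2s2, the beta subunit (chromosome 2, 154871410 to 154892935), stood at 71.9, 77.8 and 81.6 FPKM in control and at 64.99, 62.7 and 65.7 FPKM in tachypaced libraries. The mean fell from 77.1 ± 4.89 to 64.5 ± 1.58 FPKM, by 0.25 on the log2 scale (SE 0.06, limma adjusted p = 0.0467). Eif2s3x, the X-linked gene of the gamma subunit that binds GTP and the tRNA (chromosome X, 94188707 to 94212862), stood at 50.96, 53.2 and 54.004 FPKM in control and at 44.5, 42.2 and 46.9 FPKM in tachypaced libraries. It fell by 0.24 on the log2 scale (SE 0.06, adjusted p = 0.0479), and with its Y-linked copy at 0 it was the sole gamma gene detected.

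Eif2s1 encodes the alpha subunit, the one that the stress kinases phosphorylate (chromosome 12, 78861819 to 78887010). It stood at 31.8, 33.7 and 36.3 FPKM in control and at 29.5, 26.4 and 28.8 FPKM in tachypaced libraries, a log2 fold change of -0.26 (SE 0.07) that did not pass (limma adjusted p = 0.0591). The changes of the alpha, beta and gamma genes were thus of like size, between -0.26 and -0.24, and adjusted p lay on both sides of the threshold. As the median log2 distance of these 3 genes from their control means, control replicate 1 lay at -0.09, control replicates 2 and 3 at 0.01 and 0.08, and the tachypaced libraries at -0.24, -0.31 and -0.23. Without control replicate 1 all 3 passed (Eif2s1 with adjusted p = 0.00986).

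**Figure D3:**
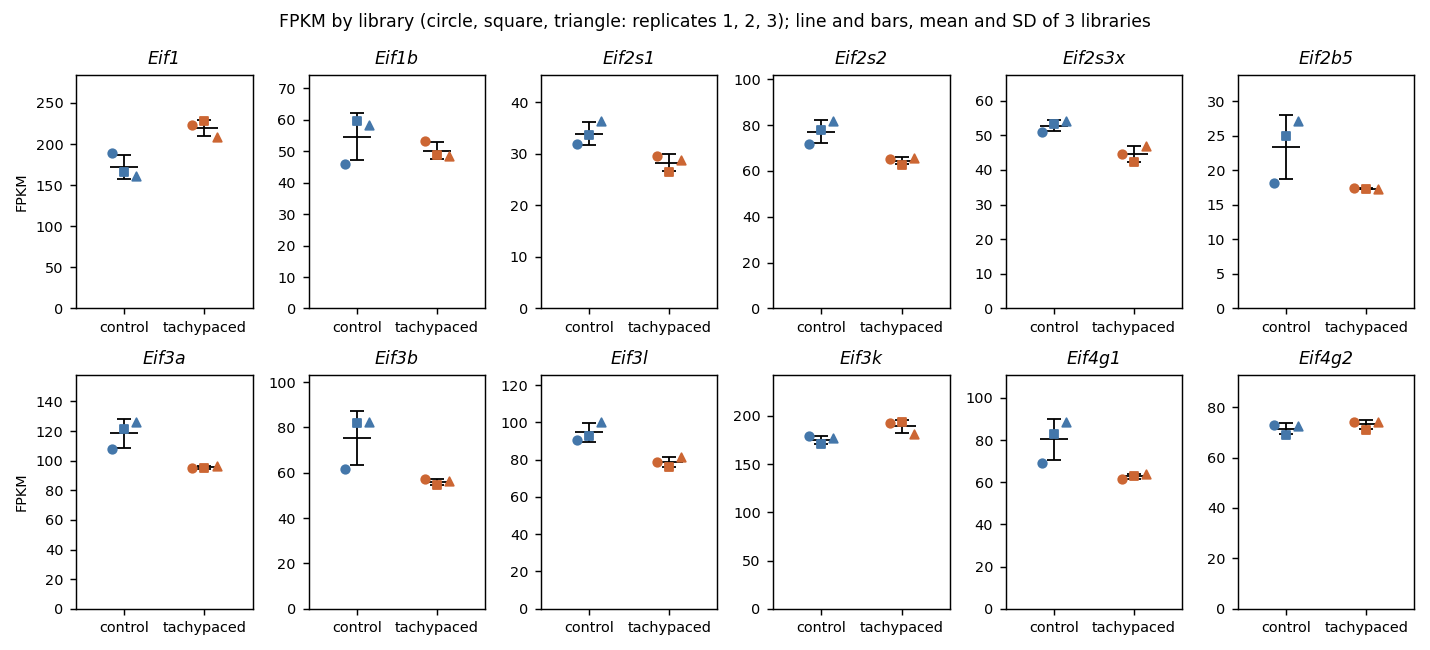
FPKM (y axis, from 0) of 12 initiation factor genes in each library, by group on the x axis (circle, square and triangle are replicates 1, 2 and 3; lines and bars are the mean and SD of 3 libraries). The groups part for Eif1, the 3 eIF2 subunit genes, Eif3a, Eif3b, Eif3l, Eif3k, Eif4g1 and, narrowly, Eif2b5, while Eif1b and Eif4g2 overlap, and control replicate 1 of Eif2b5, Eif3b and Eif4g1 lies nearest to the tachypaced values.

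The 5 genes of eIF2B, the factor that recharges eIF2 with GTP, differed in direction and 0 passed the test (limma). At an unadjusted p under 0.05, 1 was higher and 1 lower (40%), against 30.2% of all tested genes. Eif2b5, the catalytic epsilon subunit (chromosome 16, 20498817 to 20509323), stood at 18.1, 24.9 and 27.1 FPKM in control and at 17.5, 17.3 and 17.3 FPKM in tachypaced libraries. Control replicate 1 was within 1 FPKM of the tachypaced libraries and the other controls were well above, so the log2 fold change of -0.39 had an SE of 0.12 and did not pass (adjusted p = 0.0820). Without control replicate 1 it was -0.55 (adjusted p = 0.000699). Eif2b3, the gamma subunit, stood at 16.3, 17.1 and 18.4 FPKM in control and at 19.8, 21.2 and 18.4 FPKM in tachypaced libraries, with a log2 fold change of 0.19 (adjusted p = 0.120). Its groups parted by a hair, at 18.37 in the highest control and 18.42 in the lowest tachypaced library. Of all tested genes, 12.6% were higher without overlap. Eif2b1, Eif2b2 and Eif2b4 stood at 9.61 ± 0.42, 41.2 ± 1.67 and 4.51 ± 0.76 FPKM in control and at 9.504 ± 0.0594, 39.8 ± 2.27 and 4.64 ± 0.25 FPKM in tachypaced libraries.

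Of the 4 kinases that phosphorylate eIF2 alpha, 0 passed the test (limma). At an unadjusted p under 0.05, 0 were higher and 1 lower (25%), against 30.2% of all tested genes. Eif2ak2, the kinase PKR that senses double-stranded RNA, stood at 7.63, 8.97 and 8.99 FPKM in control and at 6.75, 6.23 and 7.12 FPKM in tachypaced libraries. These groups did not overlap, and 22.4% of all tested genes were likewise lower without overlap. The log2 fold change was -0.31 (SE 0.08, limma adjusted p = 0.0601), or -0.38 and called when control replicate 1 was left out (adjusted p = 0.00728). Eif2ak1 (HRI, which responds to low heme) stood at 4.79, 6.32 and 6.67 FPKM in control and at 5.70, 5.54 and 5.196 FPKM in tachypaced libraries. Eif2ak3 (PERK, of the endoplasmic reticulum) stood at 5.31, 4.49 and 5.01 FPKM in control and at 4.97, 4.32 and 5.15 FPKM in tachypaced libraries. Eif2ak4 (GCN2, which responds to uncharged tRNA) stood at 10.8, 9.64 and 11.7 FPKM in control and at 10.6, 9.27 and 9.88 FPKM in tachypaced libraries. For HRI, PERK and GCN2 the groups overlapped. Eif2a and Eif2d encode separate tRNA-binding initiation proteins that are not subunits of eIF2. Eif2a stood at 52.1 ± 1.74 and 46.3 ± 1.63 FPKM (log2 fold change -0.17, adjusted p = 0.0860) and Eif2d at 33.8 ± 0.81 and 31.2 ± 0.49 FPKM (-0.11, adjusted p = 0.181). Both were lower in each tachypaced library than in any control, as were 22.4% of all tested genes, and neither passed the test. Eif2a alone of the pair passed when control replicate 1 was left out (-0.19, limma adjusted p = 0.0203).

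Of the 14 eIF3 genes, 2 fell and 0 rose (14.3% and 0%, against 3.22% and 2.30% of all tested genes). At an unadjusted limma p under 0.05 there were 3 (21.4%), against 30.2% of all tested genes. The groups did not overlap in 5 (35.7%), against 34.9% of all. The other subunits had log2 fold changes of both signs, from -0.41 (Eif3b) to 0.11 (Eif3k). Eif3a, the largest subunit and a scaffold of the complex (chromosome 19, 60761117 to 60790658), stood at 107.6, 122 and 126 FPKM in control and at 94.9, 95.1 and 96.7 FPKM in tachypaced libraries. The mean fell from 118.5 ± 9.72 to 95.6 ± 0.99 FPKM, by 0.30 on the log2 scale (SE 0.06, limma adjusted p = 0.0435). Eif3l, a subunit of the structural core (chromosome 15, 79075179 to 79094405), stood at 90.4, 92.8 and 100.4 FPKM in control and at 78.5, 76.3 and 81.5 FPKM in tachypaced libraries. It fell by 0.26 on the log2 scale (SE 0.06, adjusted p = 0.0448). For both genes the groups were apart, and the spread was wider among controls than among tachypaced libraries.

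Eif3b, a scaffold subunit that binds Eif3a's product (chromosome 5, 140419328 to 140443360), had the most negative fold change of all initiation factor genes over the 6 libraries and did not pass. It stood at 61.5, 81.9 and 82.6 FPKM in control and at 57.2, 54.7 and 56.2 FPKM in tachypaced libraries, a log2 fold change of -0.41 (SE 0.10, limma adjusted p = 0.0533). Control replicate 1 lay far below the other controls and just above the tachypaced libraries. Without it the log2 fold change was -0.55 (adjusted p = 0.000437), beside -0.55 for Eif2b5, which was then slightly the more negative. In the other direction, Eif3k, the smallest core subunit, stood at 178.5, 170.5 and 176.5 FPKM in control and at 192, 194 and 181 FPKM in tachypaced libraries (log2 fold change 0.11, adjusted p = 0.179). Its groups did not overlap. Eif3h, with the highest level of the complex, stood at 278.4, 278.2 and 279.1 FPKM in control and at 288, 297 and 281 FPKM in tachypaced libraries, again without overlap. Its log2 fold change of 0.05 (limma adjusted p = 0.489) did not pass, and its sign changed under some scaling. Of all tested genes, 12.6% were likewise higher without overlap.

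The remaining core subunit genes Eif3c, Eif3e, Eif3f and Eif3m stood at 122 ± 4.28, 213 ± 12.7, 134 ± 1.58 and 102 ± 3.15 FPKM in control and at 114 ± 4.47, 212 ± 10.96, 139 ± 7.61 and 98.8 ± 2.74 FPKM in tachypaced libraries. Eif3d, Eif3g and Eif3i stood at 145 ± 6.82, 102 ± 12.2 and 166 ± 7.29 FPKM in control and at 139 ± 1.87, 97.2 ± 5.81 and 163 ± 8.94 FPKM in tachypaced libraries. In each of these 7 genes the groups overlapped. Leaving aside the loosely bound j subunit, the 12 subunit genes lay within 4.32-fold of each other in mean FPKM, from 65.7 (Eif3b) to 284 (Eif3h). The j subunit has genes Eif3j1 and Eif3j2 whose coding sequences are identical over all 783 aligned bases. Eif3j1, the lowest of the complex, stood at 6.89, 6.63 and 7.23 FPKM in control and at 6.52, 6.53 and 6.96 FPKM in tachypaced libraries, and Eif3j2 stood at 12.3 ± 0.50 and 12.6 ± 1.42 FPKM. Both overlapped between the groups, and reads could have been divided between them either way.

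**Figure D4:**
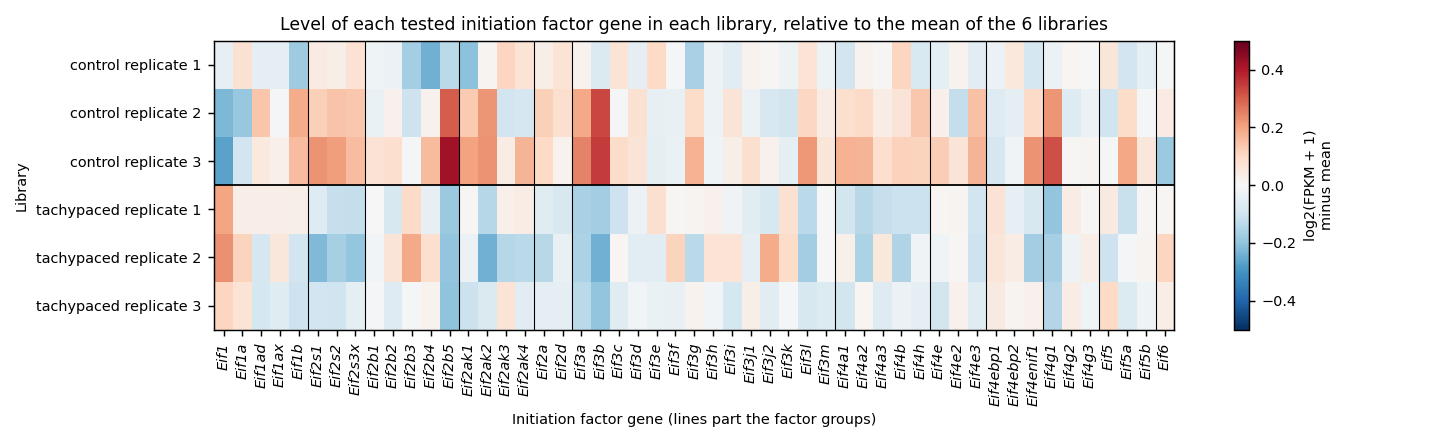
Level of each tested initiation factor gene (x axis, parted by factor group) in each library (y axis) as log2(FPKM + 1) minus the mean of the 6 libraries (colour, red above and blue below). Control replicates 2 and 3 are reddest at Eif2b5, Eif3b and Eif4g1, and control replicate 1 is near 0 or blue there.

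The 14 tested eIF4 genes held 0 calls (limma). At an unadjusted p under 0.05, 1 was higher and 3 were lower (28.6%), against 30.2% of all tested genes. The groups did not overlap in 5 (35.7%), against 34.9% of all. Eif4g1, the main scaffold that joins the cap-binding protein to eIF3 (chromosome 16, 20668313 to 20692884), came nearest to a call. It stood at 69.4, 82.8 and 88.8 FPKM in control and at 61.7, 63.1 and 63.9 FPKM in tachypaced libraries, a log2 fold change of -0.34 (SE 0.08, limma adjusted p = 0.0502). The groups did not overlap, and control replicate 1 was again the lowest control. Leaving it out gave -0.44 and a call (adjusted p = 0.000927). Its relatives had overlapping groups. Eif4g2 stood at 72.9, 69.05 and 72.7 FPKM in control and at 74.2, 71.1 and 74.3 FPKM in tachypaced libraries, and Eif4g3 at 21.9 ± 0.32 and 22.1 ± 0.43 FPKM. The log2 ratio of Eif4g1 to Eif4g2 went from 0.16 ± 0.20 in control to -0.22 ± 0.05 in tachypaced libraries, and that to Eif4g3 from 1.82 ± 0.18 to 1.47 ± 0.04, both with an exact permutation p of 0.1, the smallest possible.

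The 5 tested helicase genes had negative fold changes, as had 6102 of all 10361 tested genes, and 0 passed (limma). At an unadjusted p under 0.05, 0 were higher and 2 lower (40%), against 30.2% of all tested genes in either direction. Eif4b, which stimulates the helicase, stood at 212, 206 and 213 FPKM in control and at 183, 177 and 193 FPKM in tachypaced libraries (log2 fold change -0.19, adjusted p = 0.0601). Eif4a2 stood at 99.7, 105.2 and 111 FPKM in control and at 89.2, 87.9 and 99.03 FPKM in tachypaced libraries (log2 fold change -0.19, adjusted p = 0.0915). Both sets of values were apart, that of Eif4a2 by less than 1 FPKM, and 22.4% of all tested genes were likewise lower without overlap. Both genes were called lower when control replicate 1 was left out (Eif4b -0.18 with limma adjusted p = 0.0276, Eif4a2 -0.23 with adjusted p = 0.0230), as were 18.8% of all tested genes. Eif4a1, the more abundant paralog with 78.5% coding identity to Eif4a2, stood at 298.7, 336 and 359 FPKM in control and at 298.5, 324 and 298.3 FPKM in tachypaced libraries, with overlapping groups. Eif4a3, the helicase of the exon junction complex, stood at 64.2 ± 1.77 and 60.5 ± 3.68 FPKM, and Eif4h, another helicase partner, at 177 ± 13.9 and 163 ± 5.09 FPKM (log2 fold change -0.11, limma adjusted p = 0.266). The omission of control replicate 1 gave calls for Eif4a1 (-0.18, limma adjusted p = 0.0422) and Eif4h (-0.18, adjusted p = 0.0209), whose fold changes over all 6 libraries were both -0.11.

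Transcripts of the cap-binding protein and of its inhibitors differed little. Eif4e, the cap-binding subunit, stood at 54.4, 57.3 and 61.4 FPKM in control and at 56.7, 55.5 and 52.7 FPKM in tachypaced libraries (log2 fold change -0.07, adjusted p = 0.473). Eif4ebp1, whose product sequesters eIF4E until mTORC1 phosphorylates it, stood at 148, 144 and 142 FPKM in control and at 158, 157 and 155 FPKM in tachypaced libraries. All tachypaced values of Eif4ebp1 were above all controls, as in 12.6% of all tested genes. Its log2 fold change of 0.12 (SE 0.05) did not pass (limma adjusted p = 0.127). When control replicate 1 was left out it was 0.13 and passed (adjusted p = 0.0433). The log2 ratio of Eif4ebp1 to Eif4e went from 1.31 ± 0.11 to 1.497 ± 0.040 (exact permutation p = 0.1, the smallest possible). Eif4ebp2 stood at 24.1, 22.45 and 22.9 FPKM in control and at 22.52, 23.8 and 23.4 FPKM in tachypaced libraries, with overlapping groups. The eIF4E paralogs Eif4e2 and Eif4e3 stood at 61.1 ± 4.06 and 3.64 ± 0.39 FPKM in control and at 62.2 ± 0.33 and 3.097 ± 0.0679 FPKM in tachypaced libraries. Eif4enif1, which carries eIF4E into the nucleus, stood at 14.9 ± 1.72 and 13.2 ± 0.95 FPKM. The Eif4e3 groups were apart, with tachypaced values lower, as in 22.4% of all tested genes, and the Eif4enif1 groups overlapped. Neither passed with all 6 libraries, and both were called lower when control replicate 1 was left out (limma adjusted p of 0.0399 for Eif4e3 and 0.0420 for Eif4enif1).

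There was no call among the 3 tested eIF5 genes and Eif6 (limma). At an unadjusted p under 0.05 there were 0 in either direction, against 30.2% of all tested genes. Eif5, the GTPase activator of eIF2, stood at 34.6, 30.9 and 33.03 FPKM in control and at 34.2, 30.8 and 35.6 FPKM in tachypaced libraries. Eif5b, the GTPase that joins the ribosomal subunits, stood at 13.004, 13.4 and 14.04 FPKM in control and at 13.5, 13.6 and 13.3 FPKM in tachypaced libraries. Eif5a, the hypusine-bearing factor that helps ribosomes past difficult peptide bonds, stood at 618, 702 and 754 FPKM in control and at 610.1, 657 and 628 FPKM in tachypaced libraries (log2 fold change -0.13, adjusted p = 0.284). It was called lower when control replicate 1, the lowest control, was left out (-0.20, adjusted p = 0.0265). Eif6, which keeps the large subunit from joining too early, stood at 49.9, 51.5 and 43.9 FPKM in control and at 50.4, 54.03 and 51.2 FPKM in tachypaced libraries (log2 fold change 0.10, adjusted p = 0.355). In all 4 genes the groups overlapped.

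By factor group, the median log2 fold change was 0.02 for eIF1, -0.11 for eIF2, -0.05 for eIF3, -0.10 for eIF4 and 0.00 for eIF5, against -0.04 for all tested genes. The number of genes called was 1 of 5, 2 of 14, 2 of 14, 0 of 14 and 0 of 3, in that order, against 5.52% of all tested genes. Within eIF2 the median was -0.25 for the subunits, -0.09 for the kinases and -0.01 for eIF2B. These counts and medians are descriptions of few genes, and the differences between factor groups were not tested.

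Genes that work with the initiation factors were taken as 6 lists, of which 103 genes were tested, and 1 rose and 2 fell (0.971% and 1.94%, against 2.30% and 3.22% of all tested genes). At an unadjusted p under 0.05 the share was 27.2%, against 30.2% of all tested genes. These 3 calls were lost under quantile normalization, without the filter, without the trend and when any library but control replicate 1 was left out. Without control replicate 1 there were 8 higher and 25 lower (7.77% and 24.3%), against 11.2% and 18.8% of all tested genes. Denr, which with Mcts1 recycles ribosomes and supports reinitiation, stood at 68.3, 61.4 and 58.4 FPKM in control and at 84.2, 93.2 and 77.4 FPKM in tachypaced libraries (log2 fold change 0.43, SE 0.08, limma adjusted p = 0.0435). Its product is related in structure to that of Eif2d, which did not pass. Cnot1, the scaffold of the deadenylase complex, fell from 28.9 ± 1.10 to 22.6 ± 1.15 FPKM (-0.34, adjusted p = 0.0435). Rps6ka1, an S6 kinase of the RSK family, fell from 41.8 ± 3.67 to 33.7 ± 0.98 FPKM (-0.30, adjusted p = 0.0466). By list, 0 of 19 cap and poly(A) partners rose and 1 fell, 1 of 16 scanning and start codon partners rose and 0 fell, and 0 of 25 genes of mTORC1 and MNK signalling rose and 1 fell. Of 17 partners of eIF2 phosphorylation, 15 elongation and termination factors and 11 mitochondrial translation factors 0 passed (limma), with 5, 3 and 2 at an unadjusted p under 0.05.

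Among partners given whatever their result, Atf4, the transcription factor whose translation rises when eIF2 is phosphorylated, stood at 113 ± 8.95 and 100.4 ± 2.30 FPKM (limma adjusted p = 0.118). Ppp1r15a, the phosphatase subunit that reverses that phosphorylation, stood at 21.9 ± 0.53 and 21.1 ± 0.29 FPKM. Mtor stood at 9.17 ± 1.01 and 7.73 ± 0.20 FPKM (adjusted p = 0.123), the poly(A)-binding protein gene Pabpc1 at 1209 ± 34.7 and 1173 ± 33.8 FPKM, and the elongation factor gene Eef2 at 1617 ± 18.4 and 1450 ± 15.95 FPKM (adjusted p = 0.0761). None of these 5 passed the test.

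Transcript length moved weakly with the changes. Across the 51 tested initiation factor genes Spearman's rho between the length of the principal transcript and the log2 fold change was -0.23, and across 9789 tested genes of known length it was -0.16, with genes that share libraries and are not independent replicates. The called Eif1 has a transcript of 1322 bases, and the lower Eif3l, Eif2s2, Eif2s3x and Eif3a have transcripts of 1942, 2542, 3647 and 5125 bases. The part of length in these results was not tested. Exons of 22 of the 55 positioned initiation factor genes overlap another annotated gene, 14 of them one on the opposite strand, and the 5 called genes have no such overlap.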

How the data were processed

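RNA of 3 control and 3 tachypaced HL-1 libraries was, per the labels' protocols, made into sequencing libraries with a SMARTER mRNA-Seq kit. The authors deposited 1 table of FPKM values (rows are gene names, columns are libraries), and the submitters' processing notes name GRCm38 (mm10) as the genome build. Not given in the sources used here were the aligner, quantifier, annotation and strand setting. Because FPKM is a share of each library, abundant genes shift all others, and reads of near-identical genes may be divided between them. It gives no depth, so no counting interval or detection limit is printed.

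Columns were matched to samples by description. After the transform log2(FPKM + 1), which understates the fold changes of low genes, 10361 genes at a mean of 1 FPKM or more were fitted with limma 3.58.1 (R 4.3.3; lmFit, eBayes with trend, two-sided, no covariates) and adjusted by Benjamini-Hochberg over all of them at 0.05. The steps were tested on simulated data with independent noise for each gene. No simulated library was made to deviate as a whole, so that test says nothing of control replicate 1. For 13 within-library differences of log2(FPKM + 1), called log2 ratios, an exact permutation test was used, and 7 reached its smallest p of 0.1 (adjusted p = 0.186), so none can pass 0.05. Among the 7, the ratio of Eif2s3x to Eif2s3y restates Eif2s3x alone, because Eif2s3y was at 0 in every library. Eif5a2 was near 0, so its ratio likewise follows Eif5a. Because Eif1, Eif4g1 and Eif4ebp1 recur among the 7, these are not separate results. Positions, transcript lengths, start contexts and coding identities (Biopython 1.88) came from GENCODE M21, which placed 55 of the 57 genes.

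The members, the partner and marker lists and the rule for named genes were chosen with earlier results of these data known. That rule gives values in every library for called members, for the 3 largest changes in each direction and for a set of main factors whatever their result. Alternatives were a pseudocount of 0.1, no filter, a minimum mean of 5 FPKM, quantile normalization, scaling by median of ratios or to a common total, limma without trend or with robust hyperparameters, the replicate block, a threshold of 0.1 and leaving out each library.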

Additional observations from a re-analysis of the deposited data

How the results depend on the processing

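The initiation factor genes were called 1 higher and 4 lower, all tested genes 238 and 334, and the partner genes 1 and 2. In the same order, counts were 0 and 0, 0 and 0, and 0 and 0 without the filter on low values; 0 and 0, 13 and 4, and 0 and 0 under quantile normalization; and 0 and 0, 2 and 0, and 0 and 0 without the mean-variance trend. They were 1 and 0, 268 and 180, and 2 and 1 under the median of ratios. They were 1 and 10, 250 and 924, and 1 and 14 with a common total per library. They were 1 and 9, 288 and 475, and 2 and 8 with a minimum mean of 5 FPKM. With robust hyperparameters they were 1 and 6, 291 and 420, and 2 and 4, and at a threshold of 0.1 they were 1 and 12, 724 and 1250, and 3 and 17. Leaving out each library in turn gave 0 to 3 higher and 0 to 18 lower initiation factor genes, 1 to 1160 and 0 to 1948 of all genes, and 0 to 8 and 0 to 25 partner genes. The extremes above 1 came without control replicate 1. A pseudocount of 0.1 moved no count by 1.5 times. With the replicate block, counts were 1 and 6, 334 and 591, and 1 and 5. Same-numbered libraries deviated together with correlations of 0.06, -0.03 and 0.16, where all pairs of a control and a tachypaced library ranged from -0.16 to 0.16. With 3 libraries per group these values cannot decide whether the replicates were paired, and the labels do not say. The median log2 fold change of eIF1 genes became 0.060 under the median of ratios, 0.083 under quantile normalization and -0.018 with a common total, and without a library it ranged from -0.004 to 0.055 for eIF1 and from -0.144 to -0.056 for eIF4 genes. That of eIF3 genes became -0.007 and -0.084 under the median of ratios and a common total, and that of eIF5 genes became 0.047 under quantile normalization. Under the median of ratios those of eIF2, eIF4 and all tested genes went from -0.106, -0.096 and -0.037 to -0.066, -0.054 and 0.001, and without control replicate 3 that of eIF3 genes went from -0.047 to -0.024. The cause of these differences was not tested. The sign of 14 of 51 genes, each within 0.0512 of 0, changed under some scaling. Of the initiation factor genes printed with a fold change only Eif3h reversed, while partner genes were recomputed as counts only. The unknown depth limits what can be said of the 6 untested genes.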
